A study of Mus musculus with 8 samples.

Results

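Interleukins of the IL-1 and IL-6 families, the CSF1 receptor ligands and the receptors of these cytokines were followed in preadipocytes, stromal cells that can become fat cells, taken from inguinal fat of male mice. They are 10 of the 35976 gene symbols of the RNA-seq count table: the cytokines Il6, Lif and Il33, the receptor genes Il6ra, Il6st, Osmr, Il1r1 and Il1r2, and the CSF1 receptor ligands Csf1 and Il34. The genes were chosen by name, with results of the comparison between genotypes already known, so their differences and calls between genotypes are a description of these libraries and are no evidence about the group as a whole. The KO libraries came from mice labelled Pdgfra-Tet3 KO, a name that ties the loss of Tet3, which encodes a dioxygenase of DNA demethylation, to cells expressing Pdgfra; the Cre line is not given in the labels. The WT libraries came from Tet3 f/f mice, which carry floxed Tet3 alleles. Both were on a high fat diet for 6 weeks, and cells were sorted as PDGFRa+ cells without CD45, CD31 or TER119, and each genotype had 3 RNA-seq libraries. Since the labels name no separate animals behind the libraries, the spread that the p-values rest on may be technical. Bisulfite sequencing of 1 pool per genotype was not analysed here.

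IL-6 and its relatives LIF and oncostatin M each bind a receptor of their own, and all signal through the shared receptor subunit that Il6st encodes, which activates Janus kinases and the transcription factor STAT3. IL-1 signals through IL1R1 with an accessory chain, while IL1R2 binds IL-1 without signalling and acts as a decoy; IL-33 is an alarmin of the same family that fat stroma is known to make. CSF1 and IL-34 are unrelated in sequence yet bind the same receptor, CSF1R, which macrophages carry and need for survival.

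The RNA libraries held between 1831218 and 2014991 counts in KO and between 2002250 and 2374978 in WT. Tet3 itself had 76, 87 and 79 counts in KO libraries 1 to 3 and 93, 127 and 104 in WT libraries 1 to 3, a log2 fold change of -0.24 ± 0.24 (SE; edgeR adjusted p = 0.71), and counts per gene do not show which exons were read. All 9 preadipocyte markers checked were tested, and their sum was 27646 to 28489 CPM (counts scaled to a common library size with TMM factors) in KO and 26100 to 26887 CPM in WT. Of these markers Pdgfra, the gene of the sorting antigen, Pdgfrb and Lum passed the test as lower in KO, and Ly6a, Cd34 and Pi16 as higher. Macrophage markers too low to be tested, 13 in number and without the 1 that was tested, summed to 7.18 to 14.3 CPM in KO and 3.81 to 8.56 CPM in WT, and 6 of them were at 0 in every library, among them Adgre1, Lyz2 and Ptprc. Lymphocyte markers summed to at most 1.03 CPM in KO and 4.23 CPM in WT, and mesothelial markers, a cell type known to make IL-33, to at most 5.65 CPM in KO and 4.66 CPM in WT. Of these, 10 of the 11 lymphocyte and 5 of the 7 mesothelial markers were at 0 in every library. For all markers, a count of 0 in this table does not by itself show absence. The 8 endothelial markers too low to be tested summed to at most 14.4 CPM in KO and 13.5 CPM in WT, and Tek, the 1 that was tested, stood at 128 to 169 CPM in KO and 126 to 144 CPM in WT. Red blood cell markers summed to 151 CPM in KO library 1, 0 in KO library 2 and 39.1 CPM in KO library 3, against at most 7.13 CPM in WT. In such bulk samples, fewer cells of a type and less RNA per cell cannot be told apart. Counts were not scaled by transcript length, so levels of different genes cannot be ranked, and the ratios of reads given for pairs of genes are compared only between libraries.

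The promoter of the receptor gene that rose, that of a receptor gene of the same cluster that rose as well, and that of the cytokine nearest to the threshold are given here for what they hold. Each is the 250 bases before the annotated start in RefSeq (GRCm38.p6), all on the plus strand, and 9 of the 10 genes had an entry. Il34, which was lower in KO, had none, so its promoter could not be given. Il1r2 and Il1rl2 lie on chromosome 1 and Il6 on chromosome 5, and the decimals in the chromosome labels below carry no meaning. Capitals mark matches, on either strand, to CACGTG (an E-box), TTCNNNGAA (STAT), TGANTCA (AP-1) or the NF-kB consensus.
Il1r2, chr1.0:40085843-40086092: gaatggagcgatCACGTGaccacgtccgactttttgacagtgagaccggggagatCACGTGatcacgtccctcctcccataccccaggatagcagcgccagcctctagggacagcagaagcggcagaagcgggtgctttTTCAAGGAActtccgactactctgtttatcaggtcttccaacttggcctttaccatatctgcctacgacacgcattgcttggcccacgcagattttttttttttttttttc
Il1rl2, chr1.0:40324339-40324588: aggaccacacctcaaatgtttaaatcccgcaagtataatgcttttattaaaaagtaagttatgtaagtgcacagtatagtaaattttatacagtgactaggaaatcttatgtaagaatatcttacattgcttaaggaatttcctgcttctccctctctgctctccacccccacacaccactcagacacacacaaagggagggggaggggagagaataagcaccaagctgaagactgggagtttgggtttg
Il6, chr5.0:30012864-30013113: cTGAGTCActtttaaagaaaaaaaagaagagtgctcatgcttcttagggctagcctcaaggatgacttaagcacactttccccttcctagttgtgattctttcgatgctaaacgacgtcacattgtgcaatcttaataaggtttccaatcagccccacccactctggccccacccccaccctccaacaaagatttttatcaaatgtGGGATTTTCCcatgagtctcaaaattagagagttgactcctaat
The Il1r2 window held 2 CACGTG matches, 238 and 195 bases before the start, and 1 STAT match, 111 bases before it. Of all 32851 windows of this length, 6.02% held CACGTG at least once and 7.02% held the STAT letters. The Il6 window held 1 AP-1 match, 249 bases before the start, and 1 NF-kB match, 44 bases before it, where 6.75% and 7.25% of all windows held such letters. None of these letters stood in the Il1rl2 window. Members without a call held matches too: the NF-kB consensus stood in the Lif and Csf1 windows and in the second Il1r1 window, TGANTCA in the Lif window and CACGTG in the Il6ra window. These are counts of letters too and hold no methylation state: the windows also differed in CpG dinucleotides. The Il1r2 window held 14, the Il1rl2 window 1 and the Il6 window 3, against a median of 6 over all windows. Among the other members with an entry the count ran from 3 in the first of the Il1r1 windows to 26 in the Il6st window. The motifs are matches of letters and no binding was measured.

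Of the 10 genes, 9 passed the filter on low counts and were tested in a fit over all 9943 genes that passed it. Il1r2 was higher in KO and Il34 was lower in KO at an adjusted p of 0.05 (edgeR's quasi-likelihood test with Benjamini-Hochberg adjustment over all genes), and 7 did not pass. Of all tested genes 3.59% were called, 1.82% as higher and 1.77% as lower in KO, from which nothing is read about the 10 genes because their values were known when they were chosen. The median log2 fold change of the 9 genes was -0.12, against -0.0024 over all tested genes. The CPM of KO and WT libraries did not overlap for 4 of the 9, namely Il1r2, Il6 and Il6st, higher in KO, and Il34, lower in KO, where 20.4% of all tested genes had groups apart, 10.1% with KO higher and 10.3% with KO lower.

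**Figure D1:**
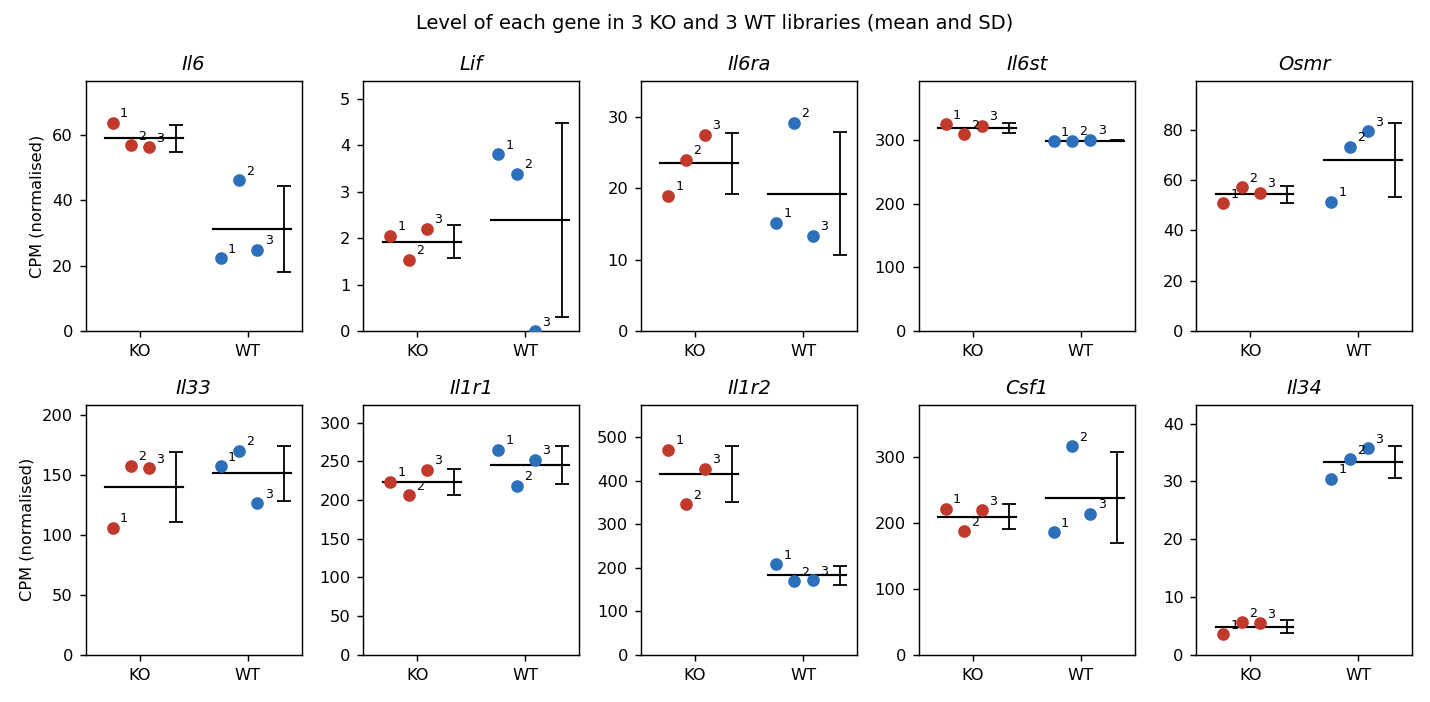
Normalised level (CPM, vertical axis from 0) of each of the 10 genes in the 3 KO and 3 WT libraries, with library numbers beside the points and the mean and SD as lines. The KO and WT points stand clear of each other for Il1r2, Il34 and Il6 and narrowly for Il6st. WT library 2 is the high point of WT for Il6, Il6ra, Csf1 and Il33.

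The IL-1 receptors differed in what they did. Il1r2, the decoy receptor, had 918, 676 and 777 counts in KO libraries 1 to 3 and 437, 399 and 345 counts in WT libraries 1 to 3. On the CPM scale this was 471, 346 and 427 in KO against 208, 169 and 171 in WT, and the lowest KO library lay above the highest WT library. The mean was 415 ± 63.7 CPM in KO and 183 ± 21.8 CPM in WT (SD, n = 3 each), 2.27 times as high in KO, with a log2 fold change of 1.18 ± 0.14 (SE), an approximate 95% interval of 0.90 to 1.47 and an edgeR adjusted p of 1.72e-06. Leaving out each library in turn kept the log2 fold change between 1.08 and 1.29, and it was 1.08 without KO library 1, the library with the most red blood cell RNA.

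Il1r1, the receptor that transmits the IL-1 signal, had 436, 403 and 435 counts in KO and 557, 516 and 508 in WT. In CPM it stood at 224, 206 and 239 in KO and 265, 218 and 252 in WT, so the groups overlapped. Its log2 fold change was -0.14 ± 0.14 (SE) with an interval of -0.42 to 0.14, and the edgeR adjusted p was 0.709. The upper end of this interval lies below the lower end of that of Il1r2. For every Il1r1 count there were 2.11, 1.68 and 1.79 Il1r2 counts in KO libraries 1 to 3, against 0.785, 0.773 and 0.679 in WT libraries 1 to 3. The ratio was higher in each KO library than in any WT library; it is one of reads and is not corrected for the lengths of the transcripts. The sum of both receptors was 638 ± 75.9 CPM in KO and 428 ± 42.8 CPM in WT (SD, n = 3 each).

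**Figure D2:**
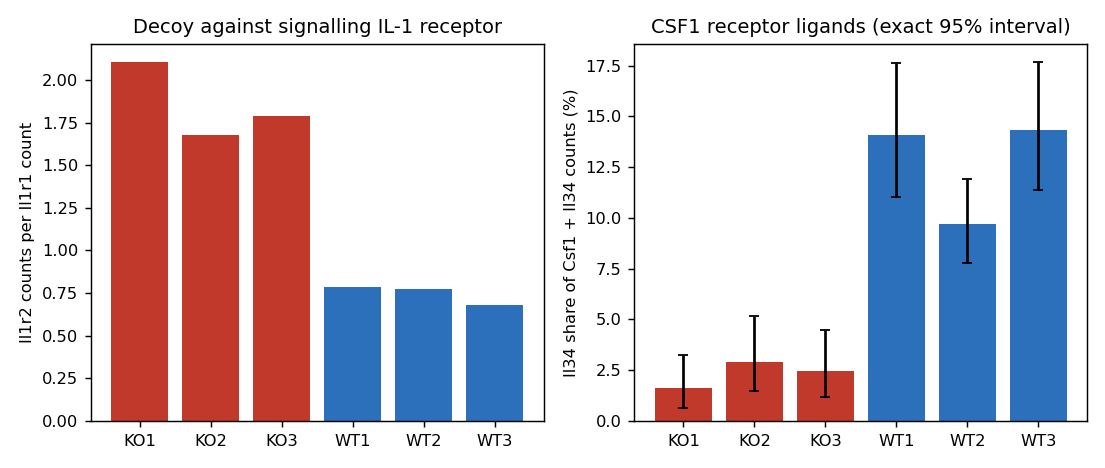
Left, Il1r2 counts per Il1r1 count in each library; right, Il34 counts as a percentage of Csf1 and Il34 counts together, with exact 95% binomial intervals that cover counting error only. The 3 KO bars lie between 1.68 and 2.11 on the left and between 1.60 and 2.92% on the right, against WT bars of 0.679 to 0.785 and of 9.69 to 14.3%.

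Il1r2 and Il1r1 are neighbours on chromosome 1 in the RefSeq gene order, which continues with Il1rl2, Il1rl1, Il18r1 and Il18rap, the other receptor genes of this cluster. Looking along this cluster was decided after its values were seen. Il1rl2, which encodes the receptor for IL-36, had 451, 390 and 413 counts in KO and 326, 303 and 250 in WT. It rose to 219 ± 17.4 CPM in KO, against 136 ± 16.8 CPM in WT (SD, n = 3 each; log2 fold change 0.69 ± 0.15, edgeR adjusted p = 0.00441), and the groups did not overlap. The Il1rl2 call was lost in the fits without KO library 3 and WT library 3, at adjusted p values of 0.0541 and 0.0517. Il18r1, a chain of the IL-18 receptor, had 22, 42 and 17 counts in KO and 9, 14 and 17 in WT, with a log2 fold change of 1.17 ± 0.54 and an adjusted p of 0.289. Il1rl1, the receptor for IL-33, had 14, 1 and 5 counts in KO and 7, 17 and 2 in WT and was not tested. Il18rap was at 0 in every library. Map4k4, the kinase gene on the other side of Il1r2, had a log2 fold change of -0.098 ± 0.13 and an adjusted p of 0.791.

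Il33, the alarmin gene of this family, did not pass. It had 207, 309 and 283 counts in KO and 331, 403 and 255 in WT, which is 106, 158 and 156 CPM in KO and 157, 171 and 127 CPM in WT. The ranges overlapped, and KO library 1 was the lowest of the 6 libraries. Its log2 fold change was -0.12 ± 0.17 with an interval of -0.47 to 0.23 (edgeR adjusted p = 0.82), and without KO library 1 it was 0.049. The accessory chain gene Il1rap stood at 36.1 ± 2.77 CPM in KO and 37.0 ± 12.8 CPM in WT (SD, n = 3 each; adjusted p = 0.98). Its log2 fold change of -0.030 changed sign with several settings, with WT library 3 at 51.6 CPM the highest of all. The ligands Il1a and Il1b and the antagonist gene Il1rn had 0 counts in every library, which allows up to 1.65 CPM each. A count of 0 in this table does not by itself show absence, since Gapdh, a gene that most cells use, had at most 1 count in any library.

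Among the IL-6 family, Il6 lay higher in every KO library but did not pass the test. It had 124, 111 and 102 counts in KO libraries 1 to 3 and 47, 109 and 50 counts in WT libraries 1 to 3. In CPM this was 63.6, 56.8 and 56.1 in KO, closely grouped, against 22.3, 46.1 and 24.8 in WT, where library 2 lay nearer to the KO libraries than to the other WT libraries. The mean was 58.8 ± 4.17 CPM in KO and 31.1 ± 13.1 CPM in WT (SD, n = 3 each). The log2 fold change was 0.91 ± 0.27 (SE), with an interval of 0.36 to 1.46 and an edgeR adjusted p of 0.0563. Without WT library 2 the log2 fold change was 1.31 with an adjusted p of 0.00545, and without WT library 1 it was 0.71 with an adjusted p of 0.253. Il6 passed with limma-voom (adjusted p = 0.0416), under both other filters and with library number as a block, and it did not pass with DESeq2 or other scaling factors. Over these settings, which kept every library, the adjusted p lay between 0.0160 and 0.0722. The 0.0160 came from the block, although library numbers did not pair the samples.

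Lif, which encodes leukemia inhibitory factor, was close to the limit of detection. It had 4, 3 and 4 counts in KO and 8, 8 and 0 in WT, and it was the member that did not pass the filter and was not tested. Its mean level was 1.93 CPM in KO and 2.40 CPM in WT, where 3 counts are worth 1.27 to 1.65 CPM.

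The receptor genes for these cytokines did not pass in either direction. Il6st, the shared signalling subunit, had 633, 605 and 586 counts in KO and 627, 707 and 605 in WT. This was 325, 309 and 322 CPM in KO and 298, 299 and 300 CPM in WT. The WT libraries were so close together that the groups stood apart, at means of 319 ± 8.35 CPM in KO and 299 ± 1.11 CPM in WT (SD, n = 3 each). In the fit the log2 fold change was 0.091 ± 0.12 (interval -0.16 to 0.34, edgeR adjusted p = 0.805). Counting error alone is 11.3 to 12.2 CPM for Il6st in the WT libraries, more than the spread between them.

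Il6ra, the chain that binds IL-6, had 37, 47 and 50 counts in KO and 32, 69 and 27 in WT. Its levels were 19.0, 24.0 and 27.5 CPM in KO against 15.2, 29.2 and 13.4 CPM in WT, with WT library 2 above every KO library. The log2 fold change was 0.28 ± 0.37 with a wide interval of -0.47 to 1.03 (edgeR adjusted p = 0.801), which reaches beyond the log2 value of 0.91 seen for Il6. Osmr, the oncostatin M receptor, had 99, 112 and 100 counts in KO and 108, 173 and 160 in WT. It stood at 50.8, 57.3 and 55.0 CPM in KO and 51.4, 73.2 and 79.4 CPM in WT, and WT library 1 lay among the KO libraries. The log2 fold change was -0.32 ± 0.22 (interval -0.78 to 0.13, edgeR adjusted p = 0.54). Lifr, which pairs with the Il6st product for LIF, was at 54.7 ± 15.0 CPM in KO and 75.3 ± 23.5 CPM in WT (SD, n = 3 each; log2 fold change -0.46 ± 0.24, adjusted p = 0.371). Il11ra1, the IL-11 receptor chain, was at 580 ± 90.3 CPM in KO and 480 ± 23.4 CPM in WT (log2 fold change 0.27 ± 0.12, adjusted p = 0.278). Of their ligands, Osm had 0 counts in every library, and Il11 had 0, 9 and 1 counts in KO and 0, 12 and 6 in WT.

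The ligands of the CSF1 receptor parted. Il34 had 7, 11 and 10 counts in KO libraries 1 to 3 and 64, 80 and 72 counts in WT libraries 1 to 3. Its levels were 3.59, 5.62 and 5.50 CPM in KO, all above the worth of 3 counts, against 30.4, 33.9 and 35.7 CPM in WT, and the groups were far apart. The mean was 4.91 ± 1.14 CPM in KO and 33.3 ± 2.69 CPM in WT (SD, n = 3 each), a level in KO of 0.148 times that in WT. KO over WT, the log2 fold change was -2.75 ± 0.41 (SE), with an interval of -3.59 to -1.92 and an edgeR adjusted p of 5.51e-05. By size of change Il34 ranked 19 among the 9943 tested genes. It passed the filter on low counts through the WT libraries, and with so few KO counts the size of the fall is less certain than its direction. Without each library in turn the log2 fold change lay between -2.87 and -2.57, with adjusted p values up to 0.00121.

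Csf1, the other ligand, had 431, 366 and 398 counts in KO and 390, 746 and 431 in WT. In CPM it was 221, 187 and 219 in KO against 185, 316 and 214 in WT, and WT library 2 was 1.70 times the lowest WT library. The groups overlapped, the log2 fold change was -0.19 ± 0.16 (interval -0.52 to 0.14, edgeR adjusted p = 0.638), and without WT library 2 it was 0.063. Il34 made up 1.60, 2.92 and 2.45% of the reads of both ligands in KO libraries 1 to 3, against 14.1, 9.69 and 14.3% in WT libraries 1 to 3. The exact 95% intervals reached at most 5.16% in KO and went down to at least 7.75% in WT, so no KO interval met a WT interval. Each interval covers the counting error of its own library only and leaves out the spread between libraries. The percentages are shares of reads, uncorrected for transcript length. Both ligands together came to 214 ± 18.4 CPM in KO and 272 ± 69.6 CPM in WT (SD, n = 3 each). The groups overlapped in this sum, which was not tested. WT library 1, at 216 CPM, lay below KO libraries 1 and 3, at 225 and 224 CPM, and WT library 2 was highest at 350 CPM. Csf1r itself, the macrophage receptor, had 8, 1 and 14 counts in KO and 6, 5 and 5 in WT and was not tested. Sdc1, a syndecan that also binds IL-34, was at 16.4 ± 4.66 CPM in KO and 26.4 ± 1.43 CPM in WT (SD, n = 3 each; log2 fold change -0.68 ± 0.35, adjusted p = 0.358).

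**Figure D3:**
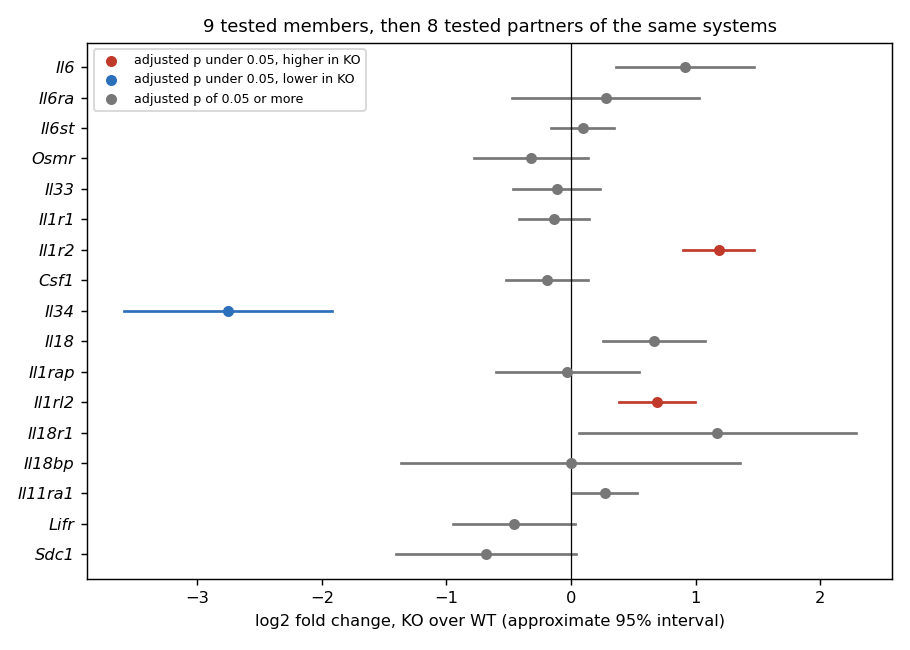
Log2 fold change of KO over WT with approximate 95% intervals for the 9 tested members, from Il6 down to Il34, and below them 8 tested partners from the same cytokine systems. Il1r2 at 1.18, Il1rl2 at 0.69 and Il34 at -2.75 are the coloured points that pass an adjusted p of 0.05, and the intervals of Il6, Il18, Il18r1 and Il11ra1 lie above 0 without passing.

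The genes closest in pattern were sought by the Pearson correlation of log2 CPM over the 6 libraries, which describes these libraries and has no test. Each search ran over 8859 genes. Because both genotypes enter, a gene that differs between them as the member does scores high, so r does not show shared regulation. Closest to Il1r2 were Fgf10, a growth factor of fat development, at r = 0.996, the inositol phosphatase gene Inpp1 at r = 0.993, and Il1rl2 at r = 0.991. Fgf10 was at 105 ± 19.8 CPM in KO and 51.8 ± 5.79 CPM in WT (SD, n = 3 each; log2 fold change 1.02 ± 0.20). Closest to Il34 were Hspa1a, an inducible heat shock chaperone, at r = 0.996, the membrane protein gene Gpm6b at r = 0.995 and Tril, which encodes an accessory protein of Toll-like receptors, at r = 0.995. Tril was at 53.5 ± 3.84 CPM in KO and 107 ± 6.43 CPM in WT (SD, n = 3 each; log2 fold change -0.99 ± 0.19).

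The rest of the cytokine systems was taken as a list of 31 further ligands, receptors and antagonists. The count table held 27 of them by symbol, 11 of these were at 0 in every library, and 8 were tested. Il1rl2 rose, 0 fell and 7 did not pass, by edgeR, where 3.59% of all tested genes were called, and the median log2 fold change was 0.13. The share of all tested genes passing without adjustment was not taken, so the next counts say nothing about the list as a whole. Before adjustment, edgeR gave 4 a p below 0.05 with a higher level in KO and 0 with a lower one. Besides Il1rl2, Il18r1 and Il11ra1 this was Il18, singled out after its values were seen, which encodes IL-18. It had 172, 173 and 161 counts in KO and 128, 137 and 97 in WT, or 88.4 ± 0.151 CPM in KO and 55.7 ± 6.67 CPM in WT (SD, n = 3 each). The KO spread is narrower than counting error at such counts and is no measure of precision. The groups did not overlap, the log2 fold change was 0.67 ± 0.20 and the adjusted p was 0.0592 by edgeR and 0.0494 by DESeq2.

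The proximal signalling genes, from the adaptor Myd88 and the IRAK kinases to the Janus kinases and STATs, held no call. Of 26 genes 24 were tested, and edgeR, DESeq2 and limma-voom each called 0. By edgeR 3.59% of all tested genes were called, a share at which so short a list can well hold no call. Before adjustment, edgeR gave 2 a p below 0.05 with a higher level in KO and 2 with a lower one. For these counts too no share of all tested genes was taken. The median log2 fold change was 0.035. Stat3 stood at 296 ± 36.5 CPM in KO and 333 ± 1.37 CPM in WT (log2 fold change -0.17 ± 0.13, adjusted p = 0.59). Its WT spread is narrower than counting error. Jak1 stood at 1162 ± 22.6 CPM in KO and 1093 ± 52.3 CPM in WT (SD, n = 3 each; log2 fold change 0.088 ± 0.10, adjusted p = 0.758).

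Genes known to respond to IL-6 family cytokines through STAT3 or to IL-1 in fibroblasts went both ways. Of 27 genes 23 were tested, 3 rose, 3 fell and 17 did not pass, which is 26.1% called, against 3.59% of all tested genes. Their median log2 fold change was 0.11. The list was drawn up with results of these libraries known, Nfkbiz among them, so this share is a description. Nfkbiz, an atypical inhibitor and cofactor of NF-kB, rose to 658, 553 and 575 CPM in KO, against 366, 389 and 340 CPM in WT (log2 fold change 0.71 ± 0.12, adjusted p = 0.000327). The metallothionein genes Mt2 and Mt1 rose by 0.61 ± 0.12 and 0.51 ± 0.12 on the log2 scale, and both were highest in KO library 1. Mt1 lost its call without KO library 1 (adjusted p = 0.0642), KO library 3, WT library 1 or WT library 2 (adjusted p up to 0.0741).

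The falls included a STAT3-responsive gene. Steap4, a metalloreductase gene that cytokines induce in fat, stood at 122, 114 and 89.1 CPM in KO, against 207, 391 and 221 CPM in WT (log2 fold change -1.34 ± 0.19, edgeR adjusted p = 2.39e-05). WT library 2 was again the highest, and without it the log2 fold change of Steap4 was -0.99. Timp1, an inhibitor of metalloproteinases, fell to 35.0 ± 7.55 CPM in KO, against 74.7 ± 17.9 CPM in WT (SD, n = 3 each; log2 fold change -1.09 ± 0.24, adjusted p = 0.00642). The Timp1 call was lost in the fits without KO library 3 and WT library 2, at adjusted p values of 0.0932 and 0.0785. Ptges, a prostaglandin E synthase gene, fell by 0.73 ± 0.19 on the log2 scale (adjusted p = 0.021), a call lost without KO library 3, WT library 1 or WT library 2 (adjusted p up to 0.226). Mt1 and Ptges were named after their values were seen. Socs3, the feedback inhibitor that IL-6 induces, had 796, 820 and 608 counts in KO and 817, 1397 and 876 in WT and did not pass (log2 fold change -0.28 ± 0.14, adjusted p = 0.328).

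**Figure D4:**
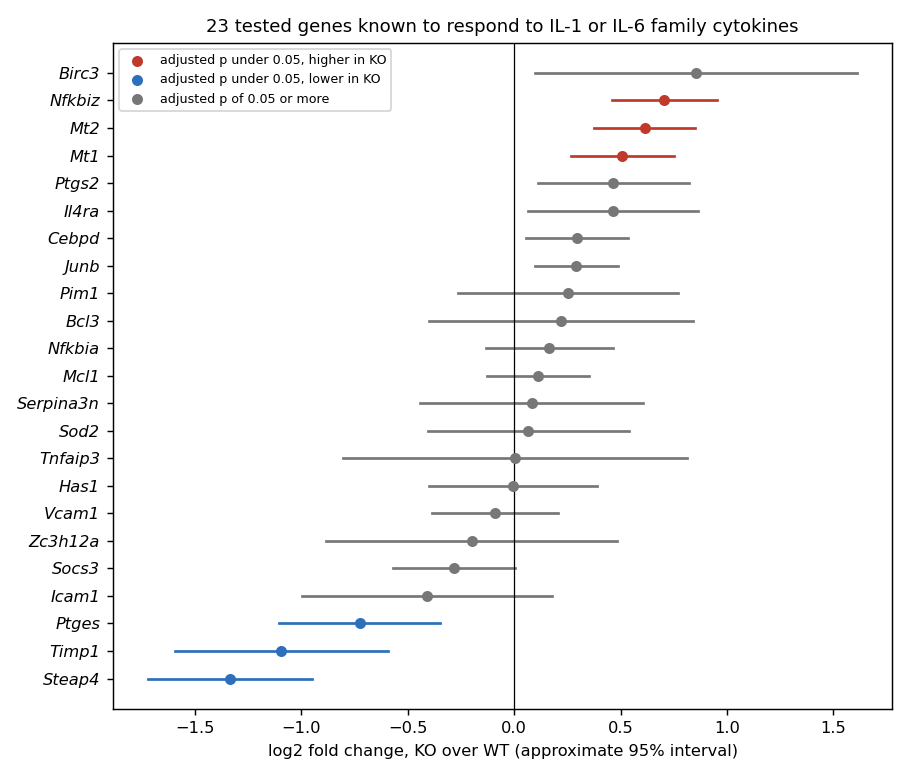
Log2 fold change of KO over WT with approximate 95% intervals for the 23 tested response genes, sorted by size. Nfkbiz, Mt2 and Mt1 pass the test on the higher side and Ptges, Timp1 and Steap4 on the lower side, with Steap4 the lowest at -1.34.

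The members varied within each genotype, and neither genotype had the wider spread throughout. In KO the highest library was 1.13 times the lowest for Il6, 1.45 times for Il6ra and 1.18 times for Csf1, against 2.06, 2.18 and 1.70 times in WT. It was 1.57 times for Il34, 1.49 times for Il33 and 1.05 times for Il6st in KO, against 1.17, 1.35 and 1.01 times in WT, and the range of Il1r2 was also wider in KO. WT library 2 was the highest WT library for Il6, Il6ra and Csf1, genes singled out after their values were seen. It was 1.96 times the mean of WT libraries 1 and 3 for Il6, 2.04 times for Il6ra and 1.58 times for Csf1, but 1.02 times for Il34 and 0.891 times for Il1r2. Of the 9 tested members 3 were at least 1.5 times that mean, while this held for 10.7% of the 8860 tested genes whose log2 CPM averaged 3 or more. For comparison, 12.4% of those genes were lower by the same factor, and their median log2 ratio was -0.0090, so library 2 was not higher in general. It was the highest WT library for 15 of the 23 tested response genes, 12 of the 24 signalling genes and 0 of the 8 further cytokine genes. Of these lists 3, 1 and 0 genes were at least 1.5 times the mean of WT libraries 1 and 3. The share of all genes highest in WT library 2 was not taken. The calls of Il1r2 and Il34 held without WT library 2, with log2 fold changes of 1.13 and -2.74.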

How the data were processed

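RNA-seq counts of 6 libraries, 3 KO and 3 WT, were analysed. The authors' deposited table gives unnormalised read counts for 35976 gene symbols, and 20133 of them are at 0 throughout. Per the submitters' processing notes the tools were HISAT2 2.2.1, HTSeq 0.9.1, DESeq2 1.36.0, Trim Galore 0.6.6 and Bismark 0.23.0, and GRCm39, mm39 and mm10 are named without a role. The strand setting of the counting is not given. Gm16894, which overlaps Il1r2 in RefSeq, had at most 13 counts in a library, and the overlapping symbols of the other members in the table at most 6. RNA was poly(A)-selected per the labels' protocols.

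Genes were kept by filterByExpr (minimum count 10, total 15), which left 9943 genes with at least 99.2% of each library's counts. edgeR 4.0.16 in R 4.3.3 (limma 3.58.1) with TMM factors and a quasi-likelihood test compared KO with WT, with Benjamini-Hochberg adjustment at 0.05. Each SE was derived from the fold change and its F value, and the 95% intervals from the SE are approximate. The test was checked on simulated data. As alternatives, each library was left out, library number was added as a replicate block, filters and scaling factors (RLE, upper quartile) were changed, and DESeq2 1.42.0 and limma-voom were run. Replicate libraries differed by a chi-square of 4.05 to 7.13 per degree of freedom, above counting noise, so none were merged.

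The members and lists were chosen with earlier results of these data known. The rule for named genes took all members, Tet3, fixed partner genes, up to 4 called genes per list and the 3 genes most correlated with each called member. Named outside this rule were Sdc1, Stat3, Jak1, Socs3, Il18, Mt1, Ptges, Gapdh and, from the receptor cluster, Il18r1, Il18rap and Map4k4. A floor of 3 counts was used for genes at 0, a limit on counting error alone. The result for 1 marker gene is not reported here. Methylation regions were not used, because the build of their coordinates is not stated and 2 columns of group levels match no sample name.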

Additional observations from a re-analysis of the deposited data

How the results depend on the processing

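The calls of Il1r2 and Il34 held under all 7 alternatives that kept every library and in the 6 fits that left out 1 library. The number of members higher in KO was 2 in place of 1, Il6 being the second, with no low count filter, with at least 20 counts in 3 libraries, with limma-voom and with the replicate block, and ran from 1 to 2 when 1 library was left out, when 1 member was lower each time. Of the further cytokine and receptor genes DESeq2 and the replicate block called 2 higher in place of 1, and leaving out 1 library gave 0 to 1. Of the response genes the replicate block called 5 higher in place of 3. Leaving out 1 library gave 2 to 4 higher and 1 to 3 lower response genes, 0 signalling genes in either direction, 0 further cytokine genes lower and 158 to 370 calls over all genes (357 with every library). The log2 fold change of Il1rap turned to 0.038 with limma-voom and 0.012 with the replicate block, that of Il33 to 0.049 without KO library 1 and that of Csf1 to 0.063 without WT library 2. Over the fits without 1 library it ran from -0.24 to 0.049 for Il33, from -0.35 to 0.063 for Csf1 and from -0.20 to 0.28 for Il1rap.

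Library numbers did not pair the samples: same-numbered libraries correlated at 0.0203, 0.0169 and -0.000243 in their deviations from the group means, and the labels give no shared litter or day. With the replicate block 501 genes were called. At 1831218 to 2374978 counts a library, genes such as Lif, Csf1r, Il11 and Il1rl1 were too low to compare.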
